A study of Homo sapiens with 4 samples.

Results

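The block described here is a stretch of chromosome 18q11 that holds most of that chromosome's intervals in the study's peak list. Its members are the 782 intervals on chromosome 18 that start at or after position 19400000 and end at or before 22200000, of 1105 intervals on chromosome 18 and 21308 in the whole list. These limits were chosen by the crowding of the same list, so the number and spacing of intervals inside them are given as a description, with no test. Widths come from the same peaks as the positions and are described in the same way. The label of the block names the gene GATA6. Whether that gene lies within the limits, or an interval on it, was not determined, as no annotation of the files' genome build was used here.

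The data are 4 CUT&RUN libraries of PaTu8988S, an established human pancreatic adenocarcinoma cell line, and all 4 form 1 group. CUT&RUN maps a protein on DNA by directing a nuclease to the bound antibody and sequencing the fragments it cuts free. Each library started from 500000 cells and 10 ug of the GATA4 antibody MAB2606. The labels name no treatment or edit of the line, and a library without the GATA4 antibody was not analysed here. The libraries are numbered 1 to 4, and the labels leave out whether each had its own culture. The deposited list gives only the chromosome, start and end of the intervals common to the 4 libraries, so no value per library, no signal height and no read depth stands behind any number below.

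GATA4 and GATA6 are paralogous zinc-finger transcription factors that bind DNA containing the core letters GATA and act together in the formation of endoderm-derived organs, the pancreas among them. In pancreatic ductal adenocarcinoma GATA6 is known as a regulator of the classical, epithelial expression programme, and the series asks how the loss of both factors relates to that programme. The chromosome 18q11 region that holds GATA6 is known to be gained in some pancreatic cancers. The copy number of this line was not analysed here, and its part in the counts was not tested.

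In the RefSeq table of assembly GRCh38.p14, used for names and order alone, the protein-coding genes from MIB1 to ZNF521 follow each other in 1 row, and all 17 genes of the list used here were found in it. MIB1, a ubiquitin ligase that acts on Notch ligands, is followed by GATA6 and then by CTAGE1. Next come RBBP8, which takes part in the resection of broken DNA ends, CABLES1, SLC35D4 (formerly TMEM241), RIOK3 and RMC1. They are followed by NPC1, the cholesterol exporter of the lysosome, ANKRD29, and LAMA3, the laminin chain of epithelial basement membranes. The order closes with TTC39C, CABYR, OSBPL1A, IMPACT, the histamine receptor gene HRH4 and the zinc-finger gene ZNF521. Which of these genes lie within the limits of the block in build hg19 was not determined, and no interval was assigned to any of them. For the same reason no sequence of an interval is shown.

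Positions are those of hg19, as the submitters' processing notes name it. The list also holds 1 mitochondrial interval, from 1 to 16571, and 16571 is the length of the mitochondrial sequence distributed with that build.

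The block took up 3.47% of the chromosome between its first and last interval and held 70.8% of the chromosome's intervals and 82.0% of the bases they cover. Its first member ran from 19400547 to 19401093 and its last from 22104244 to 22104860, a distance of 2.70 Mb from end to end. Over that distance there were 289 intervals per Mb, which covered 35.7% of the bases (966 kb). The rest of the chromosome carried 323 intervals at 4.30 per Mb, covering 0.281% of it, so that the density in the block was 67.3 times higher. The 2 sides of the block were not alike. Before it, chromosome 18 held 252 intervals at 13.0 per Mb, including a stretch of 3.33 Mb without any, and after it 71 intervals at 1.27 per Mb. Whether the build has sequence over all of that empty stretch was not determined. It was counted in the length behind the densities outside the block, and so in the ratio of 67.3. On no other autosome, nor on chromosome X, did a window of the same 2.80 Mb hold as many: the fullest had 598 intervals, on chromosome 20 from position 49892665, followed by 460 on chromosome 19 and 458 on chromosome 21.

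The lower edge of the block was gradual. The last interval before it ran from 19377980 to 19378344 (364 bp wide), 22.2 kb short of the first member, and the 3 before that one were between 406 and 464 bp wide. The first 4 members were 546, 716, 286 and 342 bp wide. In consecutive 100 kb steps the count went from 2 and 5 outside to 16, 31 and 38 inside, and the covered share from 1.96% and 2.32% to 11.45%, 29.3% and 41.5%. In the 2 Mb before the lower limit there were 14 intervals.

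The upper edge was abrupt. The last complete 100 kb step held 43 intervals and was 40.9% covered, and the next held 2, both within its first 5 kb. The last 4 members, in order of position, were 2029, 766, 1401 and 616 bp wide. After position 22104860 no interval was listed for 1.96 Mb, the next one running from 24060725 to 24061629 (904 bp). In all, 3 intervals were listed in the 2 Mb after the upper limit. As the depth is unknown, such a stretch may still hold signal that fell short of a peak in 1 library or more.

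**Figure D1:**
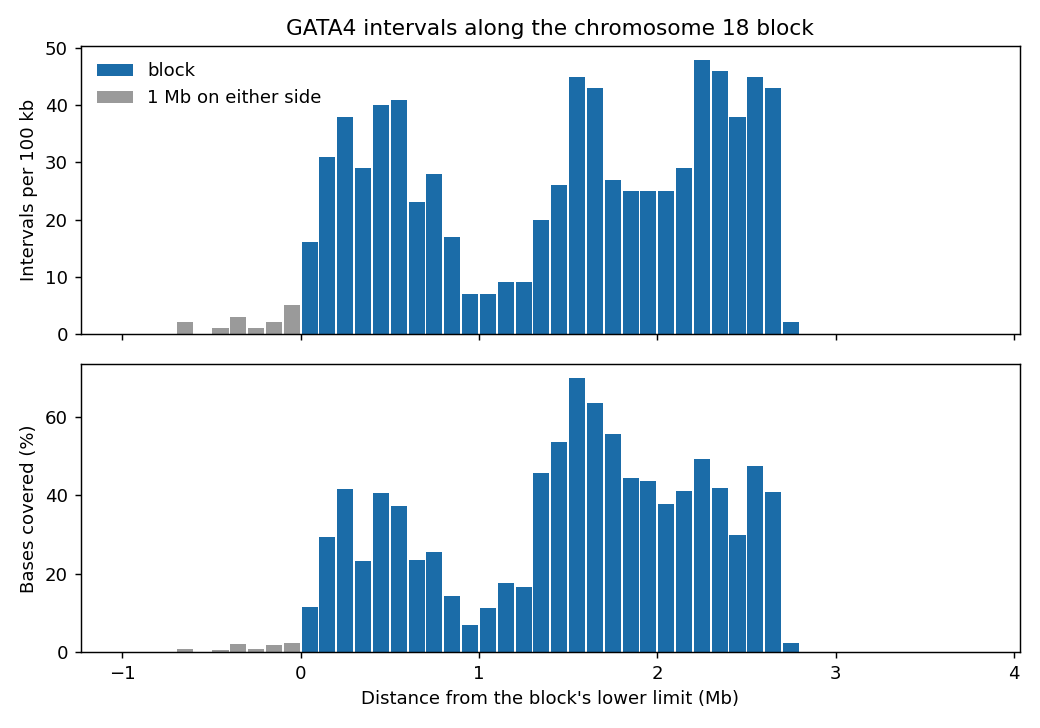
Number of intervals (upper panel) and percent of bases covered (lower panel) in 100 kb windows, against the distance in Mb from the block's lower limit; blue bars are windows of the block and grey bars windows in the 1 Mb on either side. Counts rise from 5 to 38 over 4 windows at the lower edge, fall to 7 in the middle of the block, reach 48 in its upper part and end at 0.

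Inside the block the intervals were spread unevenly. Its 28 windows of 100 kb held between 2 and 48 intervals, with a median of 27.5, and between 2.24% and 69.8% of a window was covered. The fullest window, from 21600000 to 21700000, held 48 intervals and was 49.2% covered. The most covered window, from 20900000 to 21000000, held 45 intervals. Windows that held more intervals tended to be more covered (Spearman rho 0.68 over the 28 windows), a share made up largely of those same intervals. Number and median width were weakly and inversely related (rho -0.33), and covered share and median width weakly and directly (rho 0.32). These coefficients are descriptions: the windows are neighbours on 1 chromosome and come from the same pooled libraries.

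A total of 4 parts could be told apart along the block, divided at its longest gap and at the starts of a pair of dense tracts. The division was made with the values in view. The first stretch ran from 19400547 to 20333505, with 270 intervals (289 per Mb) that covered 27.2% of it. Their median width was 856.5 bp (quartiles 592 and 1154 bp). The longest gap of the block, 66373 bp from 20333505 to 20399878, closed this stretch.

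The second stretch, from 20399878 to 20684186, was the thinly filled middle of the block. It held 25 intervals at 87.9 per Mb, and 16.1% of it was covered. The few intervals were wide: their median was 1639 bp (quartiles 1108 and 2368 bp), none was narrower than 727 bp, and 10 of the 25 were 2 kb or wider. The centres of neighbouring intervals lay a median of 10199 bp apart here, against 2312 bp in the first stretch.

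The third stretch ran from 20704190 to 21450958, and its intervals were wide, like those of the second. It held 223 intervals at 299 per Mb, a density close to that of the first stretch, yet they covered 52.8% of it. Their median width was 1552 bp (quartiles 933 and 2265 bp). Of the 223 intervals, 78 (35.0%) were 2 kb or wider, against 9 of 270 (3.33%) in the first stretch. This difference was not seen in all rows of the file: among those up to row 10560, where the list's intervals are narrower, the median was 568 bp in the third stretch (27 intervals), 525 bp in the first and 570 bp in the fourth. With 28.5% of the block's intervals, the third stretch held 40.8% of the bases covered in the block.

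The fourth stretch ran from 21466132 to the end at 22104860. It was the most crowded, with 264 intervals at 413 per Mb and a median of 1919 bp from centre to centre. Its intervals were narrow again, with a median of 854 bp (quartiles 590 and 1293 bp), and covered 42.7% of it. Of the 264, 23 (8.71%) were 2 kb or wider. The first and the fourth stretch thus had nearly the same median width at different densities, and the first and the third nearly the same density at different widths.

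**Figure D2:**
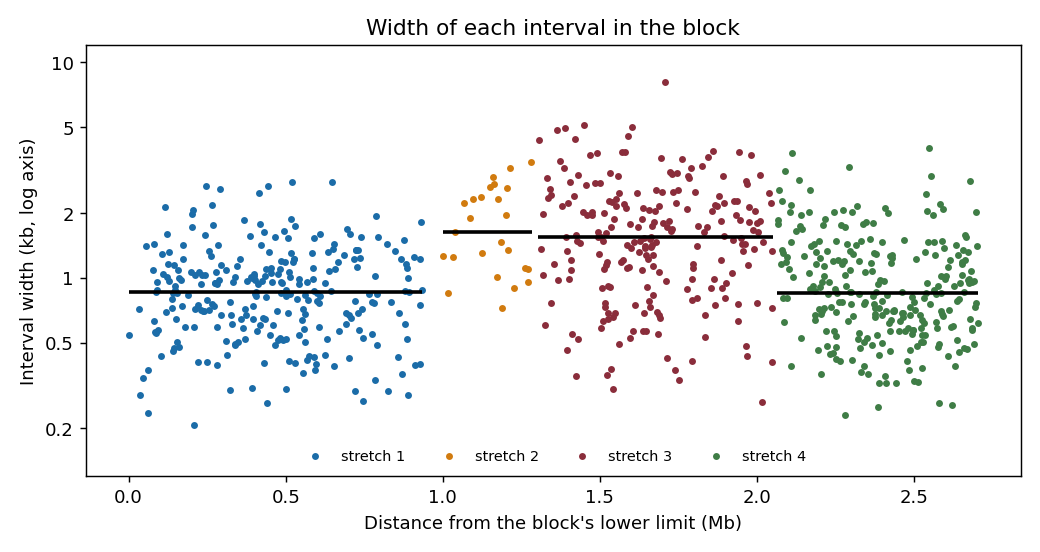
Width of each of the 782 intervals (kb, log axis) against its distance in Mb from the block's lower limit, with 1 point per interval, a colour for each of the 4 stretches and black lines for their median widths. The medians are 856.5 bp in stretch 1, 1639 bp in stretch 2, 1552 bp in stretch 3 and 854 bp in stretch 4, and the points of all stretches overlap.

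The width of an interval is not a measure of signal height. SEACR, the peak caller named by the submitters, reports an unbroken run of signal as a single peak, but the rows of this list are intervals common to 4 libraries, and how the borders of the peaks in each library were combined is not given in the sources used here. A width may therefore be that of several overlapping peaks joined. Over the whole block the median width was 991 bp, the quartiles were 669 and 1531 bp, and widths ranged from 208 bp, for the interval from 19607642 to 19607850, to 8144 bp. The 323 other intervals of chromosome 18 had a median of 531 bp (quartiles 393.5 and 770 bp), so the median in the block was 1.87 times larger. Before the block the median was 574.5 bp and after it 422 bp. Intervals of the other autosomes, of chromosome X and of the rest of chromosome 18 had a median of 578 bp. At or above the median of the whole list, 585 bp, were 630 of the 782 members (80.6%) and 135 of the 323 others of chromosome 18 (41.8%).

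**Figure D3:**
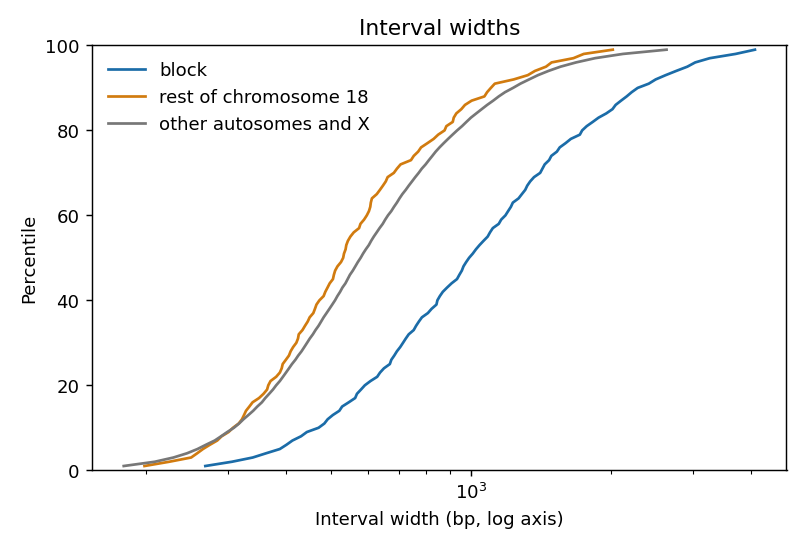
Percentiles of interval width (bp, log axis) for the block (blue), the rest of chromosome 18 (orange) and the other autosomes with chromosome X (grey). The curve of the block lies to the right of both others, with a median of 991 bp against 531 bp for the rest of chromosome 18.

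A width of 1 kb was reached by 388 intervals of the block (49.6%) and by 42 on the rest of chromosome 18 (13.0%), and a width of 2 kb by 120 (15.3%) and 4 (1.24%). The block held 3.67% of the list's intervals, but 19.3% of the 623 that were 2 kb or wider and 19.4% of the 175 that were 3 kb or wider. At 4 kb and above it held 9 of 75, or 12%, and at 5 kb and above 3 of 57, or 5.26%. Its share at each of these widths was above its 3.67% of all intervals, and was highest at 2 and 3 kb. At 5 kb and above this rested on 3 intervals, 0.384% of the block's members. On the rest of chromosome 18 the share of that width was close to it, 0.310% (1 interval).

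The widest member ran from 21103529 to 21111673 (8144 bp). It was followed by the intervals 20849075 to 20854214 with 5139 bp, 21000801 to 21005810 with 5009 bp, 20787191 to 20792171 with 4980 bp and 20761492 to 20766367 with 4875 bp. A further 3 intervals, 20989181 to 20993733, 20818192 to 20822625 and 20704190 to 20708544, had widths of 4552, 4433 and 4354 bp. The 10 widest closed with 21948142 to 21952165, of 4023 bp, and 21258727 to 21262618, of 3891 bp. Of these 10 intervals, 9 lay in the third stretch and 1, from 21948142, in the fourth. The third stretch also opened with a member of this group, the interval from 20704190.

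Neighbouring intervals often lay close together. The median gap between members was 908 bp (quartiles 201 and 2505 bp), against 37222 bp on the rest of chromosome 18. Gaps of 100 bp or less made up 17.5% of the 781 gaps in the block (137), against 1.56% of the 321 gaps elsewhere on the chromosome (5) and 4.20% of the 20012 gaps on the other autosomes and chromosome X. These short gaps were most frequent in the third stretch, where they made up 28.4% (63 of 222), against 11.5%, 8.33% and 15.6% in the first, the second and the fourth. The median gap was also shortest in the third stretch, 637.5 bp, but the centres of its intervals lay a median of 2676 bp apart. That was farther than in the first (2312 bp) and the fourth (1919 bp). Its upper gap quartile, 2184 bp, was above the 1876 bp of the fourth. How far 1 run of signal was listed in several pieces was not tested.

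**Figure D4:**
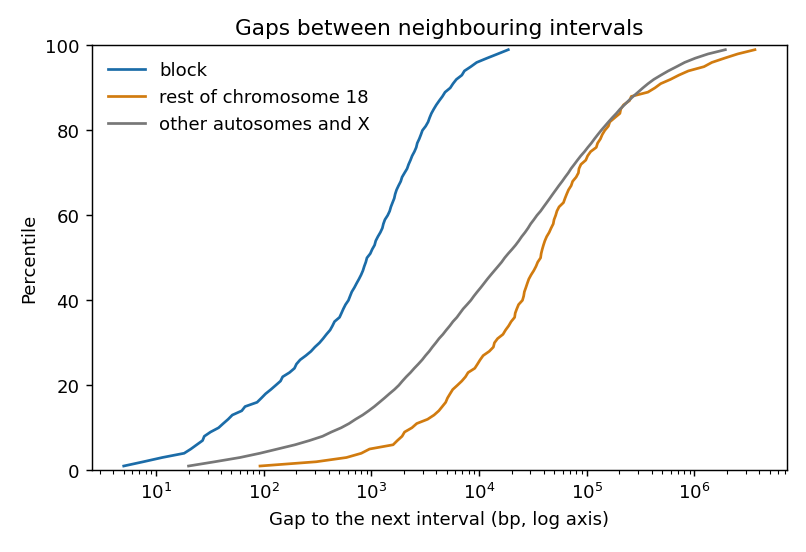
Percentiles of the gap to the next interval (bp, log axis) in the block (blue), on the rest of chromosome 18 (orange) and on the other autosomes with chromosome X (grey). The block's median gap is 908 bp, against 37222 bp on the rest of its chromosome.

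When intervals 1 kb or less apart were joined, the 782 members became 381 runs, a mean of 2.05 intervals per run against 1.06 on the rest of chromosome 18. Of these runs 204 were single intervals and 28 joined 5 or more, out of 151 such runs in the whole list and 0 on the rest of chromosome 18. Runs of 10 kb or longer numbered 15 in the block, 21.4% of the 70 in the list, and 0 on the rest of the chromosome. The third stretch held 10 of the 15, the fourth 4 and the first 1. The longest run, from 20976409 to 21006725, joined 12 intervals over 30316 bp, of which 84.5% was covered. It includes the interval of 5009 bp named above and the one of 4552 bp. The next longest, from 19912024 to 19930651 in the first stretch, joined 11 intervals over 18627 bp (75.2% covered). The third, from 21054445 to 21070984, joined 12 intervals over 16539 bp and was 94.75% covered although its widest single interval was 2075 bp. Joined runs had a median length of 3045 bp in the third stretch, 1413 bp in the first, 1985 bp in the second and 1713 bp in the fourth.

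Intervals with gaps of up to 12500 bp were also linked into clusters, of which the block had 23, 4 of them single intervals. Clusters of 20 or more intervals are here termed dense tracts. The block held 7 of the list's 96, with 698 of its 782 members (89.3%), and no other part of chromosome 18 had one. The 2 largest of the first stretch ran from 19477291 to 19695161 (78 intervals, 36.0% covered, median width 933.5 bp) and from 19708957 to 20010572 (116 intervals, 35.2% covered, 841 bp). The third tract there, from 20084652 to 20148074, held 22 intervals with a median width of 747.5 bp. The fourth stretch was a single tract.

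The 3 tracts of the third stretch stood at the top of the whole list by width. The tract from 21321633 to 21422218 held 31 intervals with a median width of 1636 bp, the highest of all 96 tracts. The next highest was that from 21176609 to 21304182, with 36 intervals and 1597 bp, and then that from 20704190 to 21163908, with 151 intervals and 1525 bp. The highest median elsewhere was 1425 bp, in a tract of 23 intervals on chromosome 17 from 36335678 to 36406060, and the 89 tracts outside the block had medians from 270 to 1425 bp, with a middle value of 740 bp. By the share covered, the 3 tracts reached 52.7%, 48.8% and 59.1% and stood at the third, the seventh and the second place. The most covered, at 59.7%, was a tract of 37 intervals on chromosome 20 from 29580449 to 29638819. All 7 tracts of the block had median widths above 740 bp, the lowest of them being 747.5 bp. Those outside the third stretch, up to 933.5 bp, stood only at places 25, 31, 33 and 50 of the 96 by median width. Many tracts elsewhere were wider. Examples are tracts on chromosome 20 from 60877435 (1268 bp) and on chromosome 8 from 145506084 (1260 bp). The middle value of 740 bp is over all 89 tracts, which were not sorted by their place on the chromosomes.

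**Figure D5:**
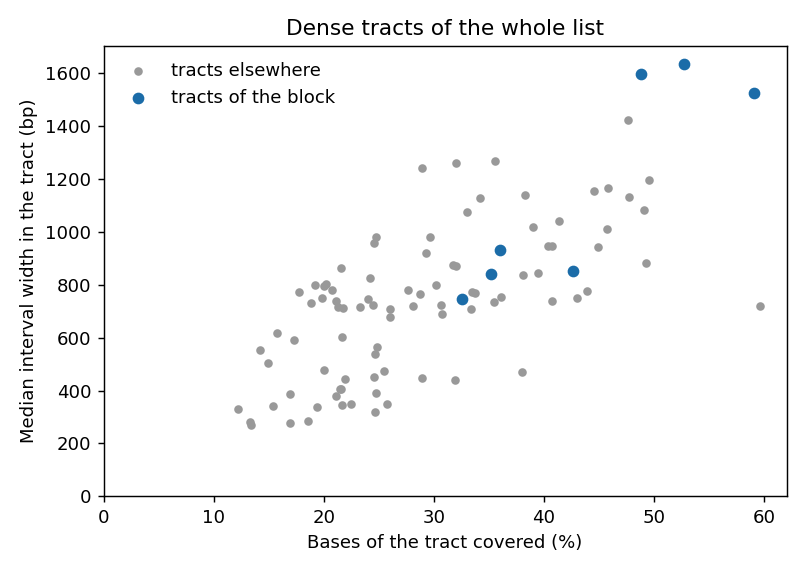
Median interval width (bp) against the percent of bases covered in each of the 96 dense tracts of the list; blue points are the 7 tracts of the block and grey points the 89 elsewhere. The 3 highest points are the tracts of the third stretch, at 1525, 1597 and 1636 bp, and the other 4 blue points lie between 747.5 and 933.5 bp, among the grey ones.

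With tracts parted by under 1 Mb taken as 1 region, the block's tracts formed the region with the most intervals in the list, 775. The next 5 by number of intervals lay on chromosomes 20, 8 and 19 and, for a pair of them, on chromosome 21. The region on chromosome 20 from 49868615 to 52851321 was of similar length and held 638 intervals, but they covered 17.4% of it, with a median width of 725.5 bp and a median gap of 2254 bp. That on chromosome 8 from 142163855 to 145781501 held 528 intervals with a median width of 1052 bp, above the 995 bp of the chromosome 18 region, and a median gap of 2938 bp, and 17.99% of it was covered. The region on chromosome 19 from 38528381 to 39901666 held 391 intervals at 285 per Mb, which covered 31.9% and had a median width of 931 bp and a median gap of 1153 bp. On chromosome 21 the region from 16306228 to 17216982 held 346 intervals at 380 per Mb, which covered 33.5%, with a median width of 771.5 bp and a median gap of 1101 bp. The other, from 9825432 to 11108206, held 222 intervals, 19.45% covered, with a median width of 797 bp and a median gap of 1384 bp. Gaps of 100 bp or less made up 17.7% of the gaps in the region of chromosome 18 and 6.59%, 8.16% and 14.9% in those of chromosomes 20, 8 and 19. On chromosome 21 they made up 13.9% in the larger region and 18.1% in the smaller, which lay above the region of chromosome 18. Among these 6 regions that of chromosome 18 had the shortest median gap, 904 bp, and the highest share covered, 36.6%, while its median width was the highest but for that of chromosome 8. Its density, 295 per Mb, was below the 380 per Mb of the larger region of chromosome 21 and close to the 285 per Mb of chromosome 19. None of these differences was tested, as the regions were all picked out by their crowding and no value per library was at hand.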

How the data were processed

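The deposited file is a list of genomic intervals in 3 columns, which the labels describe as peaks common to the 4 libraries; positions are in bp. Per the submitters' processing notes, SEACR and HOMER were used with hg19. Not given in the sources used here are versions, parameters, the peak threshold and the overlap required of common peaks, and depth per library is unknown. Positions are printed as the authors deposited them, and widths are end minus start.

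Members were found by position with Python 3.11.15, numpy 2.4.6, pandas 2.3.3 and scipy 1.17.1, and figures drawn with matplotlib 3.10.9. Densities are per Mb between the outermost intervals, except that the rest of chromosome 18 and its parts before and after the block were measured up to the edges of the block. Intervals were put in 100 kb windows by their centres. Linking was tested on made-up intervals of known grouping. For joining, the number of runs was only compared with that counted from the gaps of the same intervals. Both come from the same gap calculation, so this was no independent test of joining. Named intervals are the 10 widest, the narrowest, and those at the edges of the block.

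The members, limits and gene names were chosen with earlier results of these data known. No test was made. Motifs and promoter overlap were planned and not run, since they need an hg19 sequence and annotation, which were not used here.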

Additional observations from a re-analysis of the deposited data

How the results depend on the processing

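Alternatives were run for the block's number, density, width, covered share and tracts against the rest of chromosome 18; of the comparisons among stretches, only widths were looked at again, by file order, and gaps and regions were not. The 782 intervals became 381 when those 1 kb or less apart were merged and 630 when only those at or above the list's median width were kept. The density ratio of 67.3 was 25.3 against chromosome 18 up to 25 Mb, 34.6 after merging and 129.7 among the wider intervals. The width ratio of 1.87 was 1.72 against chromosome 18 up to 25 Mb, 1.89 for means, 3.54 after merging, which lengthens intervals where they are crowded, and 1.33 and 1.72 in the first and the second part of the file's rows, an alternative chosen after seeing the data. Over the whole 2.80 Mb of the rule 34.5% was covered. The 7 dense tracts became 12 when linked at 5 kb, 3 when linked at 25 kb, 4 with a minimum of 50 intervals and 4 after merging. Leaving out each library was not run, as the list is pooled. No paired analysis was possible because the 4 libraries form 1 group and the list has no column per library.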

Other observations

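The rows of the deposited list are not sorted by position, and their order went together with width. The list was divided into 20 equal parts in file order. The lowest median width among the first 10 was 427 bp, and the highest among the first 9 was 451 bp. The last 10 had median widths from 735 to 886.5 bp. The single division that best parted the widths on the log2 scale fell after row 10560, with a median of 438 bp before it and 803 bp after it. What the order stands for is not given in the sources used here.

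Members of the block stood mostly in the second part of the file. Of the 782, 178 (22.8%) were in the first part, against 165 of 323 (51.1%) on the rest of chromosome 18 and 49.6% of the whole list. The share was 28.5% in the first stretch of the block, 16.0% in the second, 12.1% in the third and 26.5% in the fourth. Within the first part of the file the median width was 563 bp in the block and 422 bp on the rest of the chromosome, a ratio of 1.33. Within the second part it was 1189 and 691 bp, a ratio of 1.72. Both ratios, looked at after the order had been seen, were below the 1.87 of all intervals together. The third stretch had a median of 568 bp in the first part of the file, close to the 525 and 570 bp of the first and the fourth stretch, and of 1720 bp in the second, where those had 976 and 982 bp. Against the first and the fourth stretch, the greater width of the third was thus seen among its members from the second part of the file, 196 of 223. The dividing row was itself chosen by width, and 27 members of the third stretch stood before it. The split therefore cannot tell whether widths in the first part would differ under another division.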
